A study of Mus musculus with 28 samples.

Results

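Lungs of newborn mice without the small GTPase HRas were compared with lungs of control mice, both labelled without antioxidant treatment of the dam. The comparison took the 3 arrays labelled HRas-KO and the 3 arrays labelled Control, which are 6 of the 28 arrays of the series, and covered the 22180 genes that the probe annotation names by 1 symbol. The series measured RNA of whole lungs of individual animals collected at postnatal day 0, in mice labelled Control, HRas-KO, NRas-KO and DKO (loss of both HRas and NRas). A further 14 animals of the same 4 genotypes are labelled as exposed before birth, through dams given 0.5% N-acetyl cysteine (NAC, an antioxidant) while pregnant. The treatment protocol, which is the same text for every sample, limits NAC to 3 numbered samples, and the NAC tags of the individual samples were followed here. Without NAC there were 5 DKO animals and 3 of each other genotype. With NAC there were 4 Control and 4 DKO animals and 3 of each single knockout. The labels give the genotypes by these names only. The sources used here do not give the alleles, the strain or the parents of the Control animals, and the titles of the HRas-KO+NAC arrays carry no NAC tag while their source labels do. Each array came from 1 animal, so the spread between arrays of a group is a spread between animals.

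HRas and NRas are membrane-bound switches that pass signals from growth factor receptors to the RAF, MEK and ERK kinases and to PI3K. Their loads of GTP are set by exchange factors such as SOS1 and by GTPase-activating proteins such as NF1, and active ERK turns on feedback genes such as the Sprouty, Dusp and Etv families. The mouse lung also holds heart muscle outside the heart, because cardiomyocytes of the atrial kind form a sleeve around the pulmonary veins. Type I interferon, made on sensing foreign nucleic acid, turns on a shared set of target genes, many of which restrict viruses.

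All values are log2 values of the robust multi-array average (RMA), so a difference of 1 is a doubling, and genes were tested with limma. Array medians of the 6 arrays lay between 5.30 and 5.34. The lung's own markers stood near the top of the scale: surfactant protein C (Sftpc) averaged 13.1, above 99.98% of genes, and Scgb1a1, of club cells, averaged 12.6. The ventricular light chain Myl2 averaged 4.82, at the 34.5th percentile. Hras itself is not analysed here, so the HRas-KO label has no check on its own gene. The animal codes in the titles start with C118 for Control 1, HRas-KO 2 and NRas-KO 1, with H058 for Control 2, Control 3, HRas-KO 3, NRas-KO 2 and NRas-KO 3, and with C117 for HRas-KO 1. The sources used here do not say what a code start marks. Whole-array correlations between a Control and an HRas-KO array ran from 0.9928 to 0.9956 in the 3 pairs that shared a code start and from 0.9897 to 0.9931 in the other 6 pairs. Xist, the RNA that silences 1 X chromosome in females, was high on HRas-KO 1 (10.49), HRas-KO 2 (10.49) and Control 3 (10.60). It lay between 4.10 and 4.30 on the other 3 arrays, so the sexes were not balanced between the groups. Nor were they balanced within code starts. In C118 Control 1 was low and HRas-KO 2 high, so sex and genotype cannot be told apart there. In H058 HRas-KO 3 and Control 2 were low and Control 3 high.

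No gene passed the test. Of 22180 genes, 0 were called at an adjusted p under 0.05 (limma, Benjamini-Hochberg adjustment), which is 0% of those tested, and the lowest adjusted p was 0.99996. At an unadjusted p under 0.05 there were 190 genes (0.857%), against 1109 under an even spread of p-values, of which the higher ones in HRas-KO made 0.528% of all genes and the lower ones 0.329%. The 3 HRas-KO values lay wholly above or wholly below the 3 Control values for 1502 genes (6.77%), of which 818 were higher (3.69%) and 684 lower (3.08%). For a single gene, an exact permutation test of 3 against 3 cannot give a two-sided p under 0.1. The design could miss moderate differences: the median standard error (SE) of a difference was 0.14, and the 95% interval of a typical gene reached 0.28 on each side. Within those limits, 92.2% of genes differed by less than 0.2 in either direction, and 49 by more than 0.5. Because no gene passed, differences below are given as measured values with their unadjusted p.

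**Figure D1:**
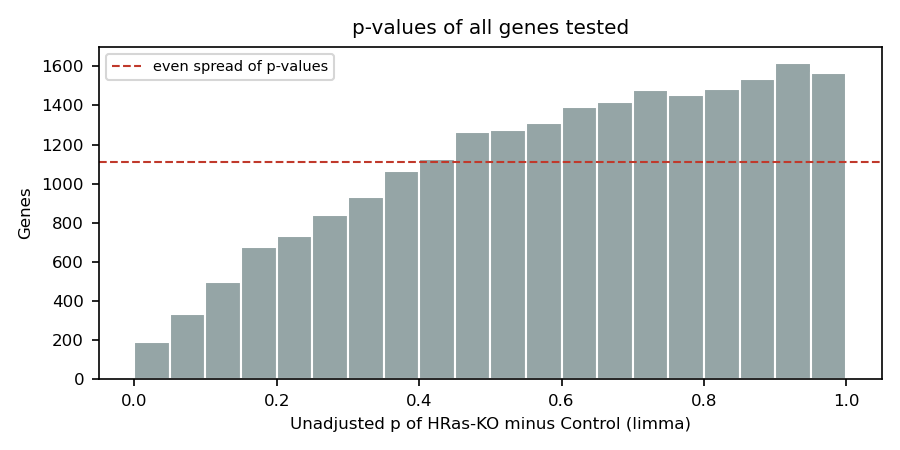
Histogram of unadjusted limma p-values for the 22180 genes in HRas-KO against Control; the x axis is p in 20 bins, the y axis the number of genes, and the dashed line the 1109 genes per bin of an even spread. The lowest bin holds 190 genes and the bars grow toward high p.

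The other Ras genes and the pathway below them differed little. Nras, which encodes a close relative of HRas, was 8.07, 8.30 and 8.35 in Control and 8.33, 8.12 and 8.35 in HRas-KO. The groups overlapped, with a difference of 0.02 (SE 0.12, unadjusted p = 0.84), whose sign turned to -0.06 without Control 1. On the NRas-KO arrays Nras read 7.77, 7.72 and 7.58, below all 6 values of the other 2 groups. Of 12 measured Ras-family GTPases, 7 were higher and 5 lower, none without overlap, with a median of 0.02 against 0.01 over all genes. The member farthest from 0 was Rras, a GTPase of integrin signalling in vessels and muscle, at 0.23 (SE 0.20), with overlapping groups.

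The 28 exchange factors, GTPase-activating proteins and kinases from SOS to ERK split into 17 higher and 11 lower, with a median of 0.03 and differences from -0.13 to 0.19. The single member without overlap (3.57%, against 3.69% of all genes higher without overlap) was Rasgrp2, a calcium-regulated exchange factor, at 6.97, 6.93 and 6.59 in Control and 7.03, 6.98 and 7.04 in HRas-KO. That difference was 0.19 (SE 0.17), and the gap between the groups was 0.01 at its narrowest. The 28 receptor kinases and ligands upstream of Ras had a median of 0.01, and the 19 genes of the PI3K, AKT and mTOR branch a median of -0.01.

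ERK-induced genes served as a readout of pathway output. Of 19 measured, 11 were higher and 8 lower, with a median of 0.06 that became -0.12 without Control 3. Dusp6, the ERK phosphatase, differed by -0.08 (SE 0.24), Spry2 by -0.04 (SE 0.28), Spry4 by 0.03 (SE 0.38) and Etv4 by 0.10 (SE 0.13). One member stood out. Etv5, an ETS transcription factor that lies downstream of FGF receptors and maintains alveolar type 2 cells, was 8.79, 8.70 and 8.20 in Control and 9.16, 9.06 and 8.83 in HRas-KO. The groups did not overlap, though the lowest HRas-KO value lay close above the highest Control value. The difference was 0.45 (SE 0.17, unadjusted p = 0.016), 0.26 within code start C118 and 0.38 within H058. In the NAC arm the Etv5 values of the 3 HRas-KO+NAC arrays, 7.68, 7.80 and 7.90, overlapped those of Control+NAC and were lower by 0.19 on average. With the mean of its probe sets in place of the brightest, the untreated Etv5 difference was 0.20.

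Nppa, a gene of heart muscle, had the widest difference of all genes tested, and Bmp10 and Tbx20, which the heart also expresses, followed it among the named higher genes. Nppa encodes atrial natriuretic peptide, and Bmp10 encodes a BMP ligand made by atrial muscle. Their promoters are shown because these genes lead the named higher genes and share expression in the atria. The sequences are the 250 bases before the start of transcription in RefSeq (build GRCm38.p6), 5′ to 3′ on the gene's strand. Capitals mark matches on either strand to GATAA preceded by A or T (GATA factors), TNAAGTG (NKX2-5) and GGTGTGA (T-box factors). Nppa lies at chr4:148000472-148000721 on the plus strand, and Bmp10 at chr6:87428744-87428993 on the plus strand.

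Nppa promoter: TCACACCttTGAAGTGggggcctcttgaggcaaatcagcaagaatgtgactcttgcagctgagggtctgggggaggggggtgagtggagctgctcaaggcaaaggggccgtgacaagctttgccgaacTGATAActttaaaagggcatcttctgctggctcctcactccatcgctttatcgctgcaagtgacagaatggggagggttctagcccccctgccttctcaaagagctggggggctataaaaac

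Bmp10 promoter: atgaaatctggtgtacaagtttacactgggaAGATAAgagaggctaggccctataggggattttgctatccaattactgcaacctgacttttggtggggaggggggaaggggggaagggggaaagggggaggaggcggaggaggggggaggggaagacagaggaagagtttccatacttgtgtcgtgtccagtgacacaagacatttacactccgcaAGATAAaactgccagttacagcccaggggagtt

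The Nppa window held 1 match to each of the 3 motifs, the T-box match on the minus strand at -250 to -244, the NKX2-5 match at -241 to -235 and the GATA match at -122 to -117. The Bmp10 window held 2 GATA matches, at -219 to -214 and at -33 to -28. A GATA match occurred in 16.6% of all 32851 promoter windows of this length, an NKX2-5 match in 10.1% and a T-box match in 3.33%. At least 1 window with a GATA match was present for 6 of 13 listed atrial genes (46.2%), against 18.8% of all genes. For the NKX2-5 motif it was 1 of 13 (7.69%), below the 11.4% of all genes, and for the T-box motif 2 of 13 (15.4%, against 3.84%). Among 31 genes shared by all heart chambers, 8 had a GATA match (25.8%). A match describes letters, not binding.

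Nppa read 6.05, 6.0 and 6.09 in Control and 10.72, 9.39 and 6.53 in HRas-KO. All 3 HRas-KO animals lay above the Controls, but by very unequal amounts: HRas-KO 1 exceeded the Control mean by 4.67, HRas-KO 2 by 3.34 and HRas-KO 3 by 0.48. The fitted difference was 2.83 (SE 0.89, unadjusted p = 0.0037, limma adjusted p = 1.00), and it was 1.91 without HRas-KO 1 and 4.01 without HRas-KO 3. Within code starts it was 3.34 in C118 and 0.48 in H058. The NRas-KO arrays, with 6.03, 5.88 and 5.85, lay near the Control level. High Nppa was not found on every HRas-KO array nor only there: HRas-KO+NAC read 6.23, 10.55 and 5.86, and 1 NRas-KO+NAC array read 8.96. The 23 arrays other than these 2 and the 3 untreated HRas-KO arrays lay between 5.32 and 6.42.

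Bmp10 read 4.24, 4.33 and 4.24 in Control and 6.56, 4.55 and 4.57 in HRas-KO. A single animal, HRas-KO 1, carried most of the fitted difference of 0.96 (SE 0.37, unadjusted p = 0.017), which was 0.29 without it. In the NAC arm HRas-KO+NAC 2 stood alone at 5.95, on the same array that had high Nppa. The other 26 arrays lay between 4.09 and 4.71.

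Tbx20 and Cav3 were higher on all 3 HRas-KO arrays, Cav3 evenly and Tbx20 by 0.38, 0.79 and 0.21 over the Control mean. Tbx20, a T-box transcription factor of heart muscle, read 6.33, 6.14 and 6.19 in Control and 6.60, 7.01 and 6.43 in HRas-KO. The groups did not overlap, with a difference of 0.46 (SE 0.17, unadjusted p = 0.013). Cav3, the muscle form of caveolin, read 4.27, 4.23 and 4.34 in Control and 4.63, 4.62 and 4.67 in HRas-KO. The 3 HRas-KO values of Cav3 were nearly equal, the difference of 0.36 (SE 0.11) was almost the same in C118 (0.34) and H058 (0.38), and its unadjusted p of 0.0024 was the smallest among the 22180 genes. Cav3 was low on the scale and is also a gene of skeletal muscle.

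**Figure D2:**
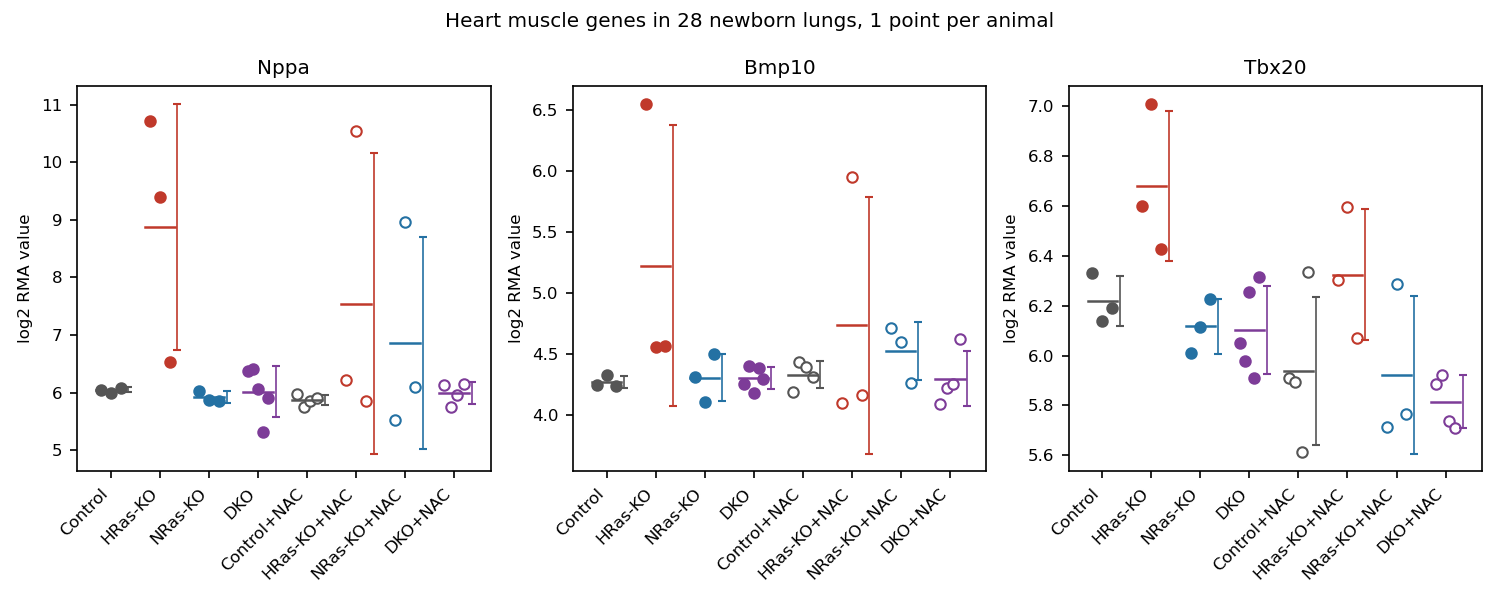
Log2 RMA values of Nppa, Bmp10 and Tbx20 in all 8 groups, 1 point per animal, with the group mean as a horizontal line and 1 SD as a vertical bar beside it; the y axis of each panel has its own range. For Nppa, the untreated HRas-KO animals sit at 10.72, 9.39 and 6.53 and the Controls between 6.0 and 6.09.

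Of 17 genes typical of atrial and pulmonary vein muscle, 14 were higher (82.4%, against 53% of all genes) and 3 lower in HRas-KO, and 3 were higher without overlap (17.6%, against 3.69% of all genes): Nppa, Bmp10 and Fgf12 (0.18). Their median difference was 0.12, against 0.01 over all genes, with 0.13 within C118 and 0.11 within H058. Of 40 genes that all heart chambers share, 29 were higher and 11 lower, and 6 were higher without overlap (15.0%). Those 6 were Cav3, Tbx20, the myosin-binding protein Mybpc3 (0.30), the transcription factor Gata4 (0.23), the Z-disc protein Ldb3 (0.21) and the sodium-calcium exchanger Slc8a1 (0.17). The median of the shared genes was 0.11, but it was 0.24 within C118 and -0.02 within H058. No member of either list passed the test. The lists were chosen with earlier results of these data known, and Nppa and Bmp10 lead the named higher genes. Their shares are therefore descriptions and no independent support, which holds for the other lists too.

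Other heart muscle genes differed between the 3 HRas-KO animals. Troponin T2 (Tnnt2) exceeded the Control mean by 0.56 on HRas-KO 1 and 0.88 on HRas-KO 2 and lay 0.13 below it on HRas-KO 3, a value written as -0.13. Atrial myosin Myh6 showed 0.59, 0.58 and -0.09 on the same arrays. Sarcolipin (Sln), an atrial inhibitor of the calcium pump, showed 0.89, 0.75 and -0.17. The atrial light chain Myl7 was high on HRas-KO 2 alone, with 0.05, 0.77 and 0.01. The ventricular light chain Myl2 showed -0.08, 0.16 and -0.11, and the ventricular myosin Myh7 showed -0.29, -0.08 and 0.13. Of 11 genes typical of ventricular muscle, 6 were higher and 5 lower over all arrays, with a median of 0.04. The widest were phospholamban (Pln), the calcium pump inhibitor, at 0.45 (SE 0.24), and the LIM protein Fhl2 at 0.21 (SE 0.15). One was higher without overlap (9.09%, against 3.69% of all genes), the transcription factor Hand2 at 0.14 (SE 0.12). Within both code starts 6 ventricular genes were higher (54.5%, against 24.6% of all genes) and 0 lower. For the atrial list it was 7 higher (41.2%) and 3 lower. A fit with code start as a block compares animals of the same code start and so leaves out HRas-KO 1. In that fit 9 of 11 ventricular genes were higher, and 12 of 17 atrial genes were higher and 5 lower.

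On average over the atrial list, relative to the mean of the 6 arrays, HRas-KO 1 stood at 0.44, HRas-KO 2 at 0.27 and HRas-KO 3 at -0.17. The Control arrays ran from -0.26 to -0.07, so HRas-KO 3 lay within the Control range. The ventricular list of 11 genes had a median of 0.04 and the smooth muscle list of 20 genes one of 0.09. Of 39 skeletal muscle genes 28 were lower, with a median of -0.07, and Control 3 alone was high, at 0.32 on average. In whole lung, more heart muscle cells in a sample and more RNA per cell cannot be told apart, and how much vein or other heart tissue each sample held was not tested.

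Of the lists examined, the interferon-stimulated genes had the largest share of members lower within both code starts. The promoters of 2 of its members are shown because they hold letter matches to an element through which type I interferon acts. Capitals mark the core of the interferon-stimulated response element (ISRE), which is GAAA, any 2 bases and GAAA again, on either strand, with overlapping matches run together. Gbp3 lies at chr3:142559794-142560043 on the plus strand, the first of 2 listed starts, and Isg15 at chr4:156200819-156201068 on the minus strand.

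Gbp3 promoter: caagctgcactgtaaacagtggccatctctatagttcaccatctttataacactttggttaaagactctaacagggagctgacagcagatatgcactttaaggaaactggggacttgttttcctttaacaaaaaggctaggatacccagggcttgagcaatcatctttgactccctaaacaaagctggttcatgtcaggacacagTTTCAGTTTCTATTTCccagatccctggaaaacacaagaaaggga

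Isg15 promoter: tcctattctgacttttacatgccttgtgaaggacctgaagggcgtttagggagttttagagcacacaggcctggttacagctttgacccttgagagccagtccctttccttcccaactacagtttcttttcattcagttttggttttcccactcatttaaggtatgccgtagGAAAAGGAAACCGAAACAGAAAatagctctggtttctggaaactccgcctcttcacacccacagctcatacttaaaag

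The Gbp3 window held 2 overlapping matches between -45 and -30, and the Isg15 window 3 overlapping matches between -78 and -57. The window of the other listed Gbp3 start, not shown, held no match. The element occurred in 2.98% of all 32851 windows. By gene, 9 of 15 interferon-list genes with a listed promoter held it (60.0%), against 3.46% of all genes and 0 of 13 listed atrial genes.

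Gbp3, an interferon-induced GTPase that acts against intracellular pathogens, read 6.35, 6.63 and 6.59 in Control and 6.25, 5.90 and 5.78 in HRas-KO. The groups did not overlap, and the difference was -0.55 (SE 0.23, unadjusted p = 0.023), with -0.45 within C118 and -0.83 within H058. Mx2, a dynamin-like antiviral GTPase, read 5.32, 5.21 and 5.24 in Control and 4.97, 5.06 and 4.55 in HRas-KO. Its groups did not overlap either, with a difference of -0.40 (SE 0.21, unadjusted p = 0.073). Bst2, or tetherin, which holds budding virus at the membrane, was the third without overlap, at 8.83, 8.57 and 8.62 against 8.44, 8.52 and 8.23, lower by 0.27 on average (difference -0.27, SE 0.31).

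Isg15, a ubiquitin-like modifier, read 7.13, 6.42 and 6.18 in Control and 6.27, 6.51 and 5.79 in HRas-KO. The groups overlapped, since HRas-KO 2 lay above Control 2 and Control 3, while Control 1 stood above all other arrays. The difference was -0.38 (SE 0.26), and -0.11 without Control 1.

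Of 21 listed interferon genes, 18 were lower and 3 higher, and 3 were lower without overlap (14.3%, against 3.08% of all genes). Those 3 also averaged below Control in NRas-KO and DKO. In the order Control, HRas-KO, NRas-KO and DKO, Gbp3 averaged 6.52, 5.98, 6.19 and 5.72. In that order Mx2 averaged 5.26, 4.86, 5.13 and 4.26, and Bst2 8.67, 8.40, 8.53 and 6.78. For Stat2, another member, NRas-KO averaged 7.48, below HRas-KO at 7.68 and Control at 7.86. The list's median was -0.13. Code start moved with these genes: on average over the list, relative to the 6 arrays, the C118 arrays Control 1 and HRas-KO 2 stood at 0.36 and 0.11, the C117 array HRas-KO 1 at 0.10, and the H058 arrays Control 2, Control 3 and HRas-KO 3 at -0.09, -0.06 and -0.42. Within a code start the HRas-KO array was thus the lower in both, with list medians of -0.26 in C118 (1 against 1) and -0.33 in H058 (1 against 2). By gene, 17 of 21 were lower within both (81.0%), against 23.5% of all genes. The list rests on few animals, since its median was 0.02 without Control 1 and -0.0028 without HRas-KO 3.

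A fit with code start as a block, over the 9 untreated Control, HRas-KO and NRas-KO arrays, called 0 genes and had 541 at an unadjusted p under 0.05 (2.44%). HRas-KO 1 is alone in C117, so its genotype difference does not enter that fit, which sets HRas-KO 2 and HRas-KO 3 against animals of their own code starts. In that fit 19 of the 21 interferon genes were lower and 2 higher, and 6 were lower at an unadjusted p under 0.05 (28.6%, against 1.07% of all genes). These 6 were Gbp3 at -0.66, Isg15 at -0.51, Mx2 at -0.50, the ubiquitin-like Oasl2 at -0.47, the signal transducer Stat2 at -0.39 and the RNA-sensing synthetase Oas2 at -0.32. The median over the list in this fit was -0.30.

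Animals of the NAC arm, which share no array with the untreated comparison, gave 17 of 21 interferon genes lower in HRas-KO+NAC, with a median of -0.10. The HRas-KO+NAC arrays averaged -0.37, -0.45 and -0.17 over the list, and the Control+NAC arrays 0.08, -0.39, -0.30 and -0.13, so the groups overlapped. The HRas-KO+NAC arrays all carry code start T453, which only 1 of the 4 Control+NAC arrays shares. Against that array alone the median was -0.18.

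**Figure D3:**
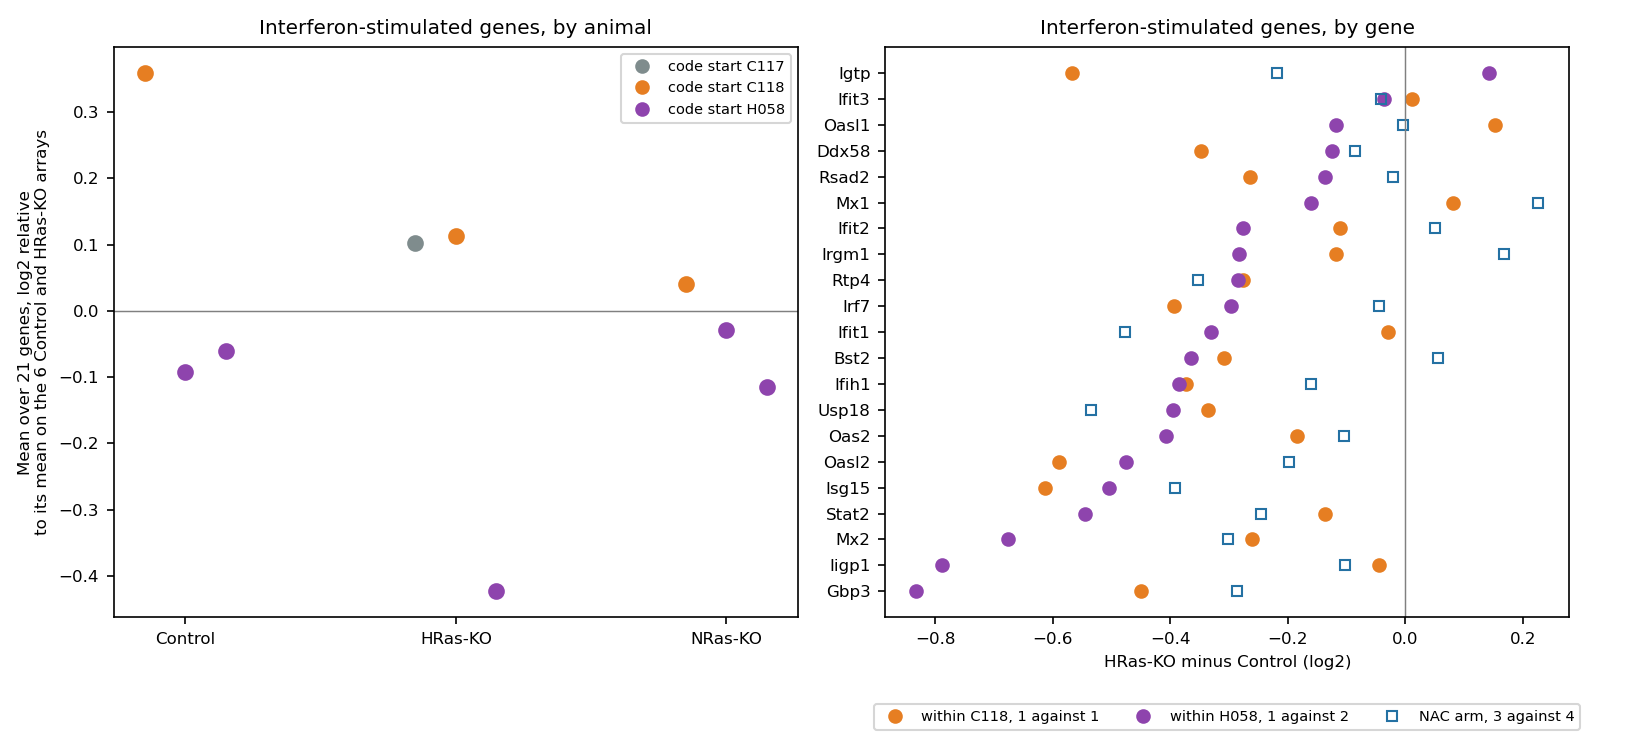
Left, mean over the 21 interferon-stimulated genes on each untreated Control, HRas-KO and NRas-KO array, in log2 relative to each gene's mean on the 6 Control and HRas-KO arrays, coloured by code start. Right, each gene's HRas-KO minus Control difference (log2) within C118, within H058 and in the NAC arm; most C118 and H058 points lie left of 0, and 17 of 21 genes are lower in both.

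The lung epithelium differed little apart from cilia genes. Sftpc read 13.12, 12.99 and 13.12 in Control and 13.06, 13.12 and 13.03 in HRas-KO, a difference within the spread between animals. Of 28 alveolar type 2 cell genes, 17 were higher and 11 lower with a median of 0.02, and 3 were higher without overlap, namely Etv5, the mucin Muc1 (0.16) and the surfactant protease Napsa (0.09), which is 10.7%, against 3.69% of all genes. Of 25 alveolar type 1 cell genes, 15 were higher and 10 lower, with a median of 0.02 and none without overlap. Ager, a membrane receptor of type 1 cells, differed by 0.11 (SE 0.10). The 15 club cell genes had a median of 0.06, the 23 epithelial transcription factors 0.03 and the 19 channels and pumps of fluid clearance 0.03.

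Ciliated cell genes leaned lower: 34 of 41 (82.9%, against 47.0% of all genes), with a median of -0.10. Of the 41, 6 were lower without overlap (14.6%, against 3.08%). Dnah5, a heavy chain of the outer dynein arm, read 6.61, 6.63 and 6.84 in Control and 6.31, 6.40 and 6.35 in HRas-KO. The HRas-KO arrays were all below the Controls, with a difference of -0.34 (SE 0.14, unadjusted p = 0.025). The other 5 were the dynein intermediate chain Dnaic1 (-0.24), the central-pair proteins Spag17 (-0.23) and Hydin (-0.16), and the cilia proteins Cfap206 (-0.19) and Cfap43 (-0.18). Foxj1, the transcription factor that sets the ciliated programme, read 6.82, 7.13 and 6.79 against 6.70, 6.74 and 7.11, overlapping, at -0.06 (SE 0.14). Within code starts the ciliated medians were -0.03 in C118 and -0.04 in H058, and the NAC arm gave -0.04. With code start as a block 19 of the 41 were higher and 22 lower, with a median of -0.03.

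Hormone-induced and immediate early genes were mostly lower. Of 24 genes induced by glucocorticoids, which mature the fetal lung, 20 were lower, with a median of -0.08, and 11 were lower within both code starts (45.8%, against 23.5%). Pdk4, which brakes glucose oxidation in mitochondria, read 9.20, 9.46 and 9.40 in Control and 9.10, 8.92 and 8.85 in HRas-KO. Its groups did not overlap, and the difference was -0.40 (SE 0.15, unadjusted p = 0.015). Under NAC the sign of Pdk4 differed, at 0.12, and so did that of the list, whose median was 0.07. Of 20 immediate early genes, the first to be transcribed after a stimulus, 17 were lower with a median of -0.10 and none without overlap. Their widest members, the nuclear receptors Nr4a2 (-0.62, SE 0.45) and Nr4a3 (-0.59, SE 0.54), were high on Control 2 (9.07 and 9.0) and on HRas-KO 3 (8.63 and 8.33). The list's median was -0.03 without Control 2 and 0.10 in the NAC arm.

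Of the 28 cell cycle genes 17 were higher and 11 lower, with a median of 0.02 and no member free of overlap. The median was -0.11 within C118 and 0.20 within H058. In the fit with code start as a block 26 of the 28 were higher and 2 lower, against 11378 of all 22180 genes higher, with a median of 0.08 and no member at an unadjusted p under 0.05. Of 37 sphingolipid genes 23 were higher, with a median of 0.03, and 2 were lower without overlap, Degs1 and Ormdl1 (5.41%, against 3.08% of all genes). The widest difference of the list was higher, that of Ormdl3 at 0.31. Its groups overlapped, at 5.10 to 5.59 in Control and 5.57 to 5.75 in HRas-KO. Under NAC the Ormdl3 groups did not overlap, at 5.32 to 5.58 in Control+NAC and 5.76 to 6.10 in HRas-KO+NAC. The direction of the sphingolipid list turned within code starts, to a median of -0.04 in C118 and also in H058, and 13 genes were lower in both (35.1%, against 23.5%). With the block 15 sphingolipid genes were higher and 22 lower. The 45 subunits of the respiratory chain and ATP synthase split into 22 higher and 23 lower. The 13 Hedgehog pathway genes had a median of 0.08, and the ligand Dhh read 4.92, 4.74 and 5.05 in Control and 5.62, 5.61 and 4.94 in HRas-KO. HRas-KO 1 and HRas-KO 2 were high for Dhh and HRas-KO 3 was within the Control range, with a difference of 0.48 (SE 0.22, unadjusted p = 0.037).

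Liver genes varied between animals within both groups. Albumin (Alb) read 9.18, 11.22 and 9.29 in Control and 8.19, 10.60 and 6.10 in HRas-KO, a difference of -1.60 with an SE of 1.09. The 15 liver genes had a median of -0.28, which was 0.51 within C118 and -0.86 within H058.

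**Figure D4:**
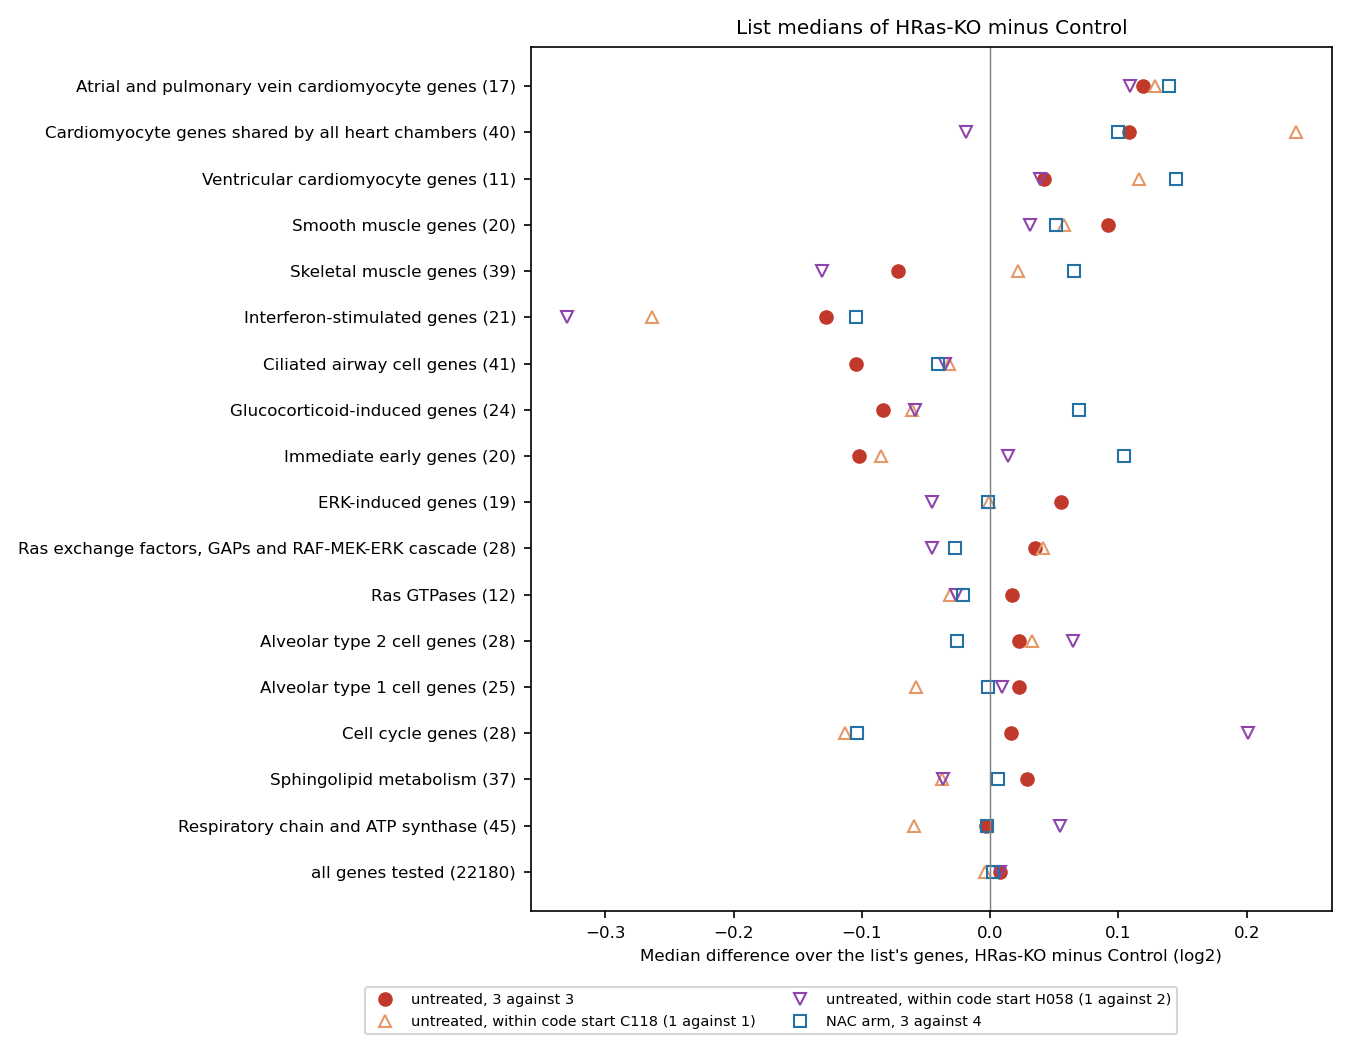
Median HRas-KO minus Control difference (log2) over each gene list, with the number of measured genes in parentheses; filled circles are the untreated arms, open triangles the comparisons within code start C118 or H058, and open squares the NAC arm. The interferon list lies at -0.13, -0.26, -0.33 and -0.10, and the median of all genes near 0.

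Outside these lists, the rule for named genes (no overlap, unadjusted p under 0.05, widest differences) gave single genes of many functions. Nefl, the light neurofilament of axons, read 3.66, 3.55 and 3.53 in Control and 3.77, 4.21 and 3.91 in HRas-KO. Its values are low on the scale, its difference was 0.38 (SE 0.12, unadjusted p = 0.0032), and HRas-KO 2 was the highest. Crym, which binds thyroid hormone in the cytosol, read 6.19, 5.99 and 6.22 against 6.48, 6.54 and 6.45. It was even between the HRas-KO animals, at 0.36 (SE 0.12) over all arrays, 0.35 within H058 and 0.36 within C118, but 0.0026 under NAC.

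Trp53cor1, a non-coding RNA induced by p53, differed by 0.41 (SE 0.13) and Aldh18a1, an enzyme of proline synthesis, by 0.40 (SE 0.15). The DNA helicase Ruvbl2 read 7.25, 7.07 and 6.97 in Control and 7.33, 7.43 and 7.52 in HRas-KO, at 0.33 (SE 0.11). Ruvbl2 was at least as high on the NRas-KO arrays, with 7.53, 7.37 and 7.69. The rule also gave Atpsckmt at 0.41, Slc28a2b at 0.38 and Apol7e at 0.37.

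Among the lower genes of the rule, Ibsp, a bone matrix protein, had the widest difference, at -0.69 (SE 0.31). Control 3 alone, at 5.49, made much of it, because the other Controls read 4.34 and 4.29 and the HRas-KO arrays 3.91, 3.93 and 4.22. Gucy1a2, a subunit of the nitric oxide receptor guanylate cyclase, read 6.98, 6.80 and 6.87 in Control and 6.26, 6.47 and 6.62 in HRas-KO. It was lower on every HRas-KO array, at -0.43 (SE 0.17, unadjusted p = 0.017), and also below NRas-KO by 0.39 (difference -0.39).

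Cytip, a leukocyte scaffold protein, read 7.40, 7.65 and 7.59 against 6.96, 7.20 and 7.21, lower on all 3 HRas-KO arrays, at -0.42 (SE 0.17). Nell1, a secreted factor of bone formation, read 5.86, 5.79 and 5.82 against 5.35, 5.45 and 5.47, at -0.40 (SE 0.17). Cd70, a ligand of the T cell receptor CD27, had the smallest unadjusted p of the lower genes, 0.0043, with 3.80, 3.76 and 3.82 against 3.50, 3.50 and 3.49. These Cd70 values sit near the floor of the array, where the lowest of all values was 2.28. The remaining genes of the rule were Igkv8-30 (-0.48), Fabp1 (-0.36), Rps4l-ps (-0.36), Tspyl3 (-0.35), Muc16 (-0.35), Npn2 (-0.32), Zbtb33 (-0.30) and Dctn6 (-0.29).

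With code start as a block, other genes came first. Trim30d had the smallest p among lower genes (block difference -0.63, unadjusted p = 0.00022) although HRas-KO 1, the lone C117 array, was the highest of the 6 at 5.42. Under NAC Trim30d was higher in HRas-KO+NAC. Mterf2, a regulator of mitochondrial transcription, read 5.15, 5.06 and 5.22 in Control and 5.02, 4.77 and 4.59 in HRas-KO. All 3 HRas-KO values of Mterf2 were lower, at -0.35 (SE 0.15, unadjusted p = 0.030), with -0.49 in the block fit. The NRas-KO arrays were as low, at 4.98, 4.65 and 4.69, and in the NAC arm the difference was -0.45 (unadjusted p = 0.0040, limma adjusted p = 0.57).

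Among higher genes the block fit gave Il9r (0.45), Gpr137b-ps (0.50), Rasd2 (0.38), Nefl (0.47) and Gsdmcl2 (0.50). Rasd2 encodes a small GTPase related to Ras. It read 5.85, 5.92 and 5.89 in Control and 6.18, 6.14 and 6.34 in HRas-KO, without overlap.

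The NAC arm allowed the genotype comparison in other animals, with another balance of the sexes. Xist was low on all HRas-KO+NAC arrays (4.38 to 4.60) and ran from 4.10 to 10.91 in Control+NAC. Sex was thus unbalanced between the groups of this arm as well. The comparison under NAC also called 0 genes at an adjusted p under 0.05 and had 1408 at an unadjusted p under 0.05 (6.35%). Of all genes, 50.7% were higher in HRas-KO+NAC. Of the 10 genes named for the widest higher differences, 6 were also higher under NAC, and of the 10 named for the widest lower differences, 6 were also lower. Tbx20 was closest between arms, at 0.46 untreated and 0.39 under NAC (limma unadjusted p = 0.023). Its groups overlapped under NAC, at 6.07 to 6.60 in HRas-KO+NAC and 5.61 to 6.33 in Control+NAC. Against the only Control+NAC array of code start T453, which all HRas-KO+NAC arrays carry, the Tbx20 difference was -0.0087. The test of the change of a difference between arms called 0 genes and had 456 at an unadjusted p under 0.05 (2.06%).

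Groups without overlap made 6.77% of all genes untreated, and under NAC 3.53% as higher and 3.50% as lower. Of all 22180 genes, 107 did not overlap in both arms. That is about the count these shares would give together if the arms were unrelated, and no test of it was run. Of these 107, 69 went the same way, 41 higher and 28 lower. Some of them, singled out after their values were seen, are given with both arms. Arhgap40 read 5.38, 5.19 and 5.40 in Control and 5.74, 5.69 and 5.56 in HRas-KO, with differences of 0.34 untreated and 0.35 under NAC. Gucy2g, a membrane guanylate cyclase, differed by 0.24 and 0.33. Rexo5, an RNA exonuclease, differed by -0.23 and -0.40 in the same order.

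**Figure D5:**
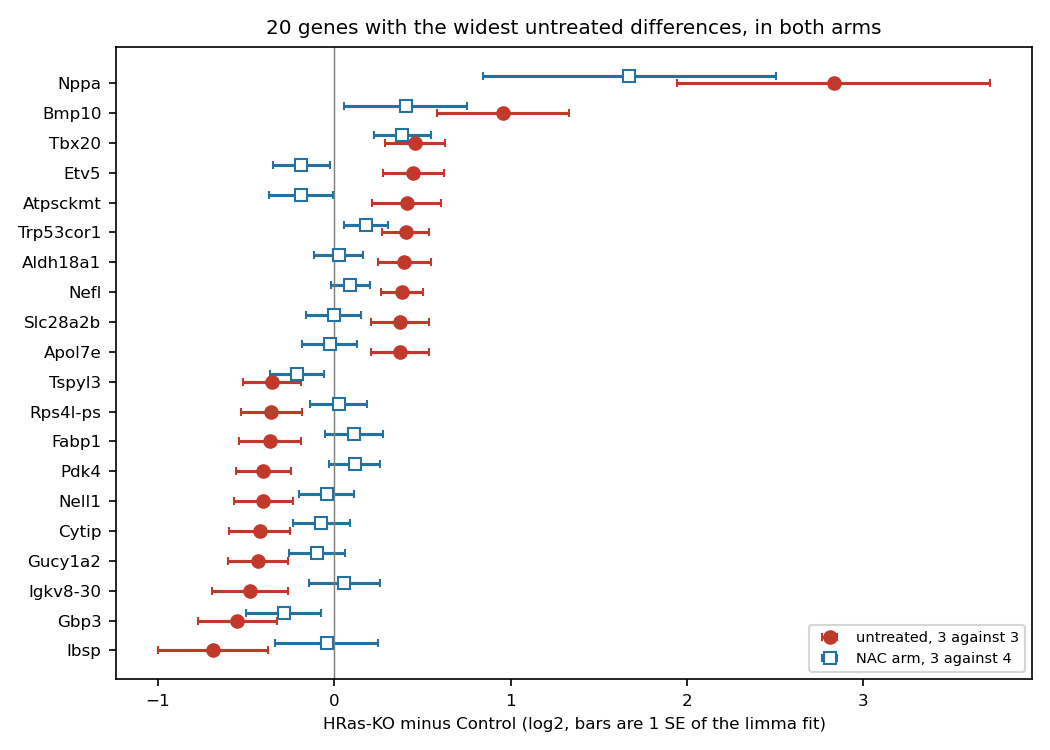
HRas-KO minus Control difference (log2) for the 20 genes with the widest untreated differences under the named-gene rule, untreated (circles, 3 against 3 arrays) and in the NAC arm (squares, 3 against 4), with bars of 1 SE. Nppa is at 2.83 and 1.67, and 6 of 10 higher and 6 of 10 lower genes keep their side of 0 under NAC.

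HRas-KO was also set against NRas-KO. That test called 0 genes and had 379 at an unadjusted p under 0.05 (1.71%). Nras, the gene named in the NRas-KO label, was 0.58 higher in HRas-KO (SE 0.12, unadjusted p = 7.6e-05, limma adjusted p = 0.56). Nppa was higher by 2.96 and Tbx20 by 0.56. Cav3 differed less, by 0.14, since the NRas-KO arrays read 4.52, 4.62 and 4.34. The interferon list had a median of -0.07 and the ciliated list one of -0.17 in this comparison.

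Genes near Hras can travel with a targeted allele, so the 20 measured genes on each side of it in RefSeq gene order were examined. Of these 40 genes, 24 were higher and 16 lower, with a median of 0.02 and differences from -0.29 to 0.21. Only 2 did not overlap (5.00%, against 6.77% of all genes), and none had an unadjusted p under 0.05. Both were higher: Lrrc56, the next gene to Hras, at 5.69, 5.61 and 5.69 in Control and 5.93, 5.91 and 5.73 in HRas-KO, and the hormone gene secretin (Sct), at 5.53, 5.42 and 5.61 against 5.62, 5.89 and 5.64. The Lrrc56 difference was 0.20 (SE 0.19) and that of Sct 0.19 (SE 0.11). Under NAC Lrrc56 read 5.93, 5.65, 5.58 and 4.77 in Control+NAC and 5.51, 5.78 and 5.62 in HRas-KO+NAC. These groups overlapped, with a difference of 0.15 (unadjusted p = 0.40). Within code start T453, which leaves only the Control+NAC array at 4.77, the lowest of the 4, it was 0.87 (unadjusted p = 0.00078, limma adjusted p = 0.74), a comparison chosen after the data were seen. Of the 40 neighbours 4 had an unadjusted p under 0.05 under NAC, against 6.35% of all genes.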

How the data were processed

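RNA of whole lungs was measured on 1-colour arrays, 1 array per animal, and the values are the log2 values the authors deposited for 41345 probe sets on 28 arrays. Per the submitters' processing notes they were made with RMA and the affy package, with no version named. RMA corrects background, fits arrays to one distribution and summarises probes, so it narrows differences near background. The sources used here do not say whether the 28 arrays were fitted jointly. No array was a copy of another. Precision is limited by the number of arrays.

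Of the probe sets, 23521 had 1 gene symbol in the platform annotation, 1814 had several and 16010 were not listed. The brightest probe set stood for each of the 1082 genes with several, leaving 22180 genes. Groups were taken from the source labels. A linear model of 8 group means on the 28 arrays was fitted with limma (version 3.58.1, R version 4.3.3), leaving 20 residual degrees of freedom to which the prior added 5.95. Benjamini-Hochberg adjustment ran over all genes, with a call at adjusted p under 0.05. HRas-KO minus Control, the same difference under NAC, the change between them and HRas-KO minus NRas-KO were contrasts of that fit, and the fit with code start as a fixed factor used the 9 untreated arrays other than DKO. The script was checked on simulated data.

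The gene lists and members were chosen with earlier results of these data known. Named genes were Nras, the 10 widest differences each way among genes without overlap and with unadjusted p under 0.05, the 5 smallest p-values each way in either fit, and up to 4 genes per list by p, without predicted genes, small RNAs, odorant-type receptors, Xist and Y-linked genes. Lists were described by counts and medians, with no test. Alternatives left out each array, changed the normalization, the dim-gene filter, the prior, the array weights, the probe set rule and the block. Promoter windows of 250 bases came from RefSeq (GRCm38.p6) and were used for sequence only.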

Additional observations from a re-analysis of the deposited data

Results flagged for a closer look

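Control+NAC is the group of 4 that serves as the reference in the NAC arm. For 6 of the named genes, 1 of its arrays, not necessarily the same for each gene, stood far from the other 3. The gap to the nearest array, as a share of the group's range, was 0.912 for Ruvbl2 (7.54 against 7.19 to 7.22) and 0.896 for Oas1b (4.44 against 4.73 to 4.76). It was 0.891 for Cd70 (3.54 against 3.75 to 3.78), 0.885 for Apol7e (4.39 against 4.82 to 4.88), 0.881 for Gbp3 (5.81 against 6.58 to 6.69) and 0.84 for Trim30d (4.69 against 4.31 to 4.37). Chance alone marks about 1 in 20 groups in this way, so some of the many named genes would be marked by chance. The untreated groups of 3 are too small for the same check.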

How the results depend on the processing

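In every setting run, 0 genes were called in HRas-KO against Control. Of 1363 recomputed differences of 63 named genes, 1359 kept their direction, the lowest limma adjusted p being 0.9995. This count is no measure of robustness, because many of these genes were picked for groups that do not overlap. For such genes, leaving out an array or comparing within a code start cannot turn the sign. The groups of Nras and Oas1b, the genes that reversed, overlapped. The 4 reversals came from leaving out 1 array: the Nras difference ranged from -0.058 (without Control 1) to 0.099 and was also below 0 without HRas-KO 1 or HRas-KO 3, and that of Oas1b ranged from -0.35 to 0.021 (without Control 1). The count at an unadjusted p under 0.05, 190 as reported, was 480 with only the 6 arrays, 348 with the 14 untreated arrays, 541 with code start as a fixed block, 123 within C118, 83 without the dimmest 40% of genes, 690 with array weights and 436 over every probe set. Leaving out 1 array gave 134 to 432, with 432 without Control 1 and 420 without HRas-KO 3. With code start as a block, leaving out 1 array gave 382 to 698. The replicate numbers did not pair the animals, since same-numbered arrays correlated in their deviations at 0.03, -0.33 and 0.04, and the replicate block gave 417 genes and 0 called. With array weights, 1 named gene, Nras, was called in HRas-KO against NRas-KO, against 0 as reported. List medians moved by over 1 SD between animals in 29 of 528 values. With HRas-KO 1 and HRas-KO 2 both left out, chosen after seeing the data, Nppa was 0.48, the atrial median 0.0094 and the interferon median -0.52. The causes of these changes were not tested. Signal near background limits low genes such as Cd70, Nefl and Cav3.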

Other observations

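Rps13, a protein of the small ribosomal subunit, lies outside the rule for named genes and was singled out after its values were seen. It read 6.84, 6.83 and 6.94 in Control and 3.52, 6.42 and 3.46 in HRas-KO, the widest lower difference of the comparison at -2.40 (SE 1.34, limma unadjusted p = 0.084). Over all 28 arrays its values fell into 14 between 2.82 and 3.97 and 14 between 6.10 and 8.32, with none between. The low values occurred on 0 of 3 Control, 2 of 3 HRas-KO, 1 of 3 NRas-KO, 3 of 5 DKO, 3 of 4 Control+NAC, 0 of 3 HRas-KO+NAC, 2 of 3 NRas-KO+NAC and 3 of 4 DKO+NAC arrays. Under NAC the HRas-KO difference was 2.20, opposite to the untreated one, and the change between arms had an unadjusted p of 0.018 (adjusted p = 1.00).

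Of 33 collagen and elastic fibre genes 25 were higher, with a median of 0.04, and of 41 cytosolic ribosomal protein genes 28 were lower, with a median of -0.04. Of 16 mesothelial genes 11 were lower (median -0.10), with 2 lower without overlap (12.5%, against 3.08% of all genes) and 1 higher without overlap (6.25%, against 3.69%). The 28 macrophage and monocyte genes split into 14 higher and 14 lower.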
